A study of Mus musculus with 6 samples.

Results

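The subject here is a set of 10 genes of excitation-contraction calcium handling, followed through 3 Hi-C matrices of C2C12 muscle cells. The genes were *Ryr1*, *Ryr3*, *Cacna1s*, *Atp2a1*, *Pln*, *Casq1*, *Casq2*, *Trdn*, *Jph1* and *Jph2*. Each was placed, by the transcription start site (TSS) of its GENCODE record on mm10, in 1 of the 500 kb bins of the matrices. No measured value entered that placement, but the genes themselves were chosen with earlier results of these data known. The 10 genes fell into 10 different bins, out of 5019 bins of chr 1 to 19 and chr X with data in all 3 conditions. Of those, 3800 bins held the TSS of a protein-coding gene and 3579 of these lay on autosomes. All 10 loci are autosomal, so the 3579 autosomal bins with a coding TSS are the background used below.

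C2C12 is a mouse cell line (C3H strain, injured thigh muscle) whose myoblasts fuse into multinucleated myotubes when serum is withdrawn. Myoblasts were harvested sub-confluent after 72 h of proliferation in 10% fetal bovine serum (day 0). Myotubes were harvested on day 3 of differentiation in 2% horse serum. AraC-treated myotubes were harvested on day 7, after 10 µg/mL cytosine arabinoside (AraC) from day 3. AraC is a nucleoside analogue that was used to remove the dividing myoblasts that remain in such cultures. Day of culture and AraC changed together, so their parts cannot be told apart. The libraries were made from whole cultures of a single cell line, for which the labels name no transgene or gene deletion, and do not separate myotubes from myoblasts still present beside them. Each condition had 2 biological replicates, and the authors pooled them into a single matrix before deposit. Each bin pair therefore has 1 value per condition, without a replicate error, and the comparisons below are of size only and carry no test. Before pooling, the paper reports lower correlation between the myoblast replicates than between the replicates of either kind of myotube. The myoblast replicates were hardly closer to each other than the nearer of them was to myotubes. How far this spread enters the differences from myoblasts given below was not tested. The matrices carry no transcript levels, so expression of the genes was not measured here.

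In skeletal muscle, an action potential that runs along a T-tubule is sensed by a voltage-gated channel of the tubule membrane, which is held against a calcium release channel of the sarcoplasmic reticulum. Calcium released through that channel triggers contraction, calcium-binding proteins inside the reticulum buffer the store, and a calcium pump returns the ion to it. The junction between both membranes is built by scaffold proteins, and many of these genes are switched on as myoblasts fuse. In Hi-C, the first principal component (PC1) of the correlation matrix of a chromosome separates an A compartment, generally open and gene-rich (PC1 above 0 here), from a B compartment, generally closed (PC1 below 0). PC1 was computed per chromosome, and because its spread was smallest in myoblasts, it was also divided by its SD over the bins of the same chromosome and condition. That quotient is called scaled PC1, in units of chromosome SD, and a difference of 0.5 or more was called a rise (-0.5 or less, a fall).

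Promoters are shown for 4 of the genes, a pair whose bins lay in the A compartment in all conditions (*Cacna1s*, *Casq2*) and a pair whose bins lay in the B compartment in all conditions (*Casq1*, *Pln*). They are those of RefSeq on GRCm38.p6, from 250 bases before to 50 bases after the start site, written 5′ to 3′ on the strand of the gene. The RefSeq start sites lie 61 (*Cacna1s*), 0 (*Casq2*), 27 (*Casq1*) and 19 (*Pln*) bases from the GENCODE start sites that placed the genes in bins. The promoters lie at chr1:136052561-136052860 (plus strand), chr3:102086165-102086464 (plus), chr1:172219846-172220145 (minus) and chr10:53337436-53337735 (plus). Capitals mark each E-box (CANNTG, the core bound by myogenic basic helix-loop-helix factors such as MYOD1) and each match to the MEF2 motif, looked for on both strands.
Cacna1s: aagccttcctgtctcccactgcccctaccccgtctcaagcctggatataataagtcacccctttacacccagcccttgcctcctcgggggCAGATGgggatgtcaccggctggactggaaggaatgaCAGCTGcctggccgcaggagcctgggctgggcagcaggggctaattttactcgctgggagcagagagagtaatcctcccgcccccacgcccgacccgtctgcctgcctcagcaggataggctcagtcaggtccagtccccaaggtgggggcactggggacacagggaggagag
Casq2: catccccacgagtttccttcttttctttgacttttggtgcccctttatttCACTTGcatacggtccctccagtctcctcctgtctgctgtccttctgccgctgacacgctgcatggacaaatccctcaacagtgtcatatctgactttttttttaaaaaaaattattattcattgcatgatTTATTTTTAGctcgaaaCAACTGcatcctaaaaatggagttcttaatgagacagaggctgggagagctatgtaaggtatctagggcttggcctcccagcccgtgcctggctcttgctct
Casq1: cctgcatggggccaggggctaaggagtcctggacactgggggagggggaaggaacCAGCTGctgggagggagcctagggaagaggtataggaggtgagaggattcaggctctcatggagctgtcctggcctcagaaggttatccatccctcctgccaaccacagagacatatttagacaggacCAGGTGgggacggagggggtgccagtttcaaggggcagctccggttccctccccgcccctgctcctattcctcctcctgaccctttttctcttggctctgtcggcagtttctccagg
Pln: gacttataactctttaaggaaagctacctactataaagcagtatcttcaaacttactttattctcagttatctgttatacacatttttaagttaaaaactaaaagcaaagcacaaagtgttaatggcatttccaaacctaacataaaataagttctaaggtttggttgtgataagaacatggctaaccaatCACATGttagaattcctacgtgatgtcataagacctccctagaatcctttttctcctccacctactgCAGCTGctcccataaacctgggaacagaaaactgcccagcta
RefSeq promoters were matched for 7 of the 10 genes, and *Ryr3*, *Trdn* and *Jph1* were not matched. An E-box CANNTG stood in the promoters of 6 of the 7 genes, against 72.3% of all 32851 promoters. The form CAGCTG, which is 1 kind of CANNTG, stood in 5 of the 7 (*Atp2a1*, *Cacna1s*, *Casq1*, *Pln* and *Jph2*), against 16.3% of all promoters. Among the 4 shown, CAGCTG was present in the A gene *Cacna1s* and in the B genes *Casq1* and *Pln*, and absent from the A gene *Casq2*. Of the other matched genes, it was present in *Atp2a1* (A) and *Jph2* (B) and absent from *Ryr1* (A). So few promoters cannot show whether its presence followed the compartment. *Casq2* held the only MEF2 match among the 7 genes, 69 bases before the start site, and 3.19% of all promoters hold one. The promoter of *Ryr1* held neither motif. A CArG box (1.63% of all promoters) and AAGCTT (7.45%) were found in 0 of the 7. A match is a string of letters and not a site of binding, and a bin of 500 kb does not resolve a promoter.

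The bins themselves differed in what they held besides the gene. The bin of *Trdn* held no other coding TSS, and *Pln* shared its bin with *Cep85l*, *Jph1* with *Gdap1*, and *Ryr3* with *Fmn1* and *Tmco5b*. By contrast, the bin of *Jph2* held 9 coding TSSs, those of *Atp2a1* and *Cacna1s* 11 each, that of *Ryr1* 13 and that of *Casq1* 16, against a median of 4 over the 3800 bins with a coding TSS. GC content ran from 36.5% in the *Trdn* bin to 50.5% in the *Ryr1* bin, around a median of 42.5% over those bins. HindIII, the enzyme of these libraries, cuts at AAGCTT, and the *Ryr1* bin held only 106 such sites while the *Ryr3* bin held 181 (median 160). Fewer sites give fewer fragments that can be ligated, and their part in the values of *Ryr1* was not tested.

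At the level of compartments, the loci split. *Ryr1*, *Atp2a1*, *Cacna1s* and *Casq2* lay in the A compartment in all 3 conditions, *Casq1*, *Pln*, *Trdn* and *Jph2* lay in the B compartment in all 3, and *Ryr3* and *Jph1* changed sign. In all, 5, 6 and 5 of 10 loci were in A (myoblasts, myotubes, AraC-treated myotubes), next to 46.1%, 44.4% and 43.3% of the background bins. These shares are close to the background, so that the loci as a set were not set apart by compartment. The plot of scaled PC1 by condition shows both layers and the few loci near the border.

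**Figure D1:**
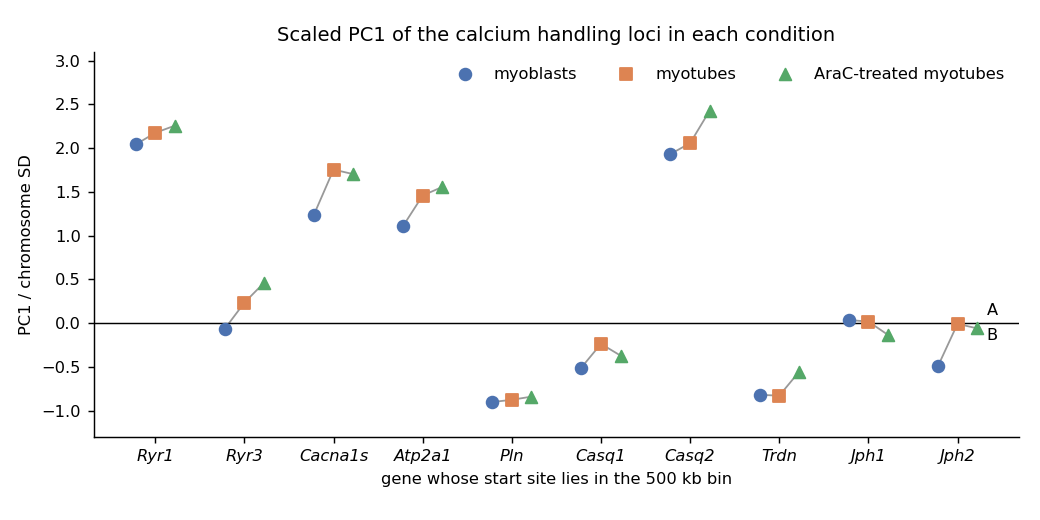
Scaled PC1 (PC1 divided by the SD of its chromosome, vertical axis, in chromosome SD) of the 500 kb bin of each gene (horizontal axis) in myoblasts (circles), myotubes (squares) and AraC-treated myotubes (triangles), 1 pooled value each. *Ryr1*, *Cacna1s*, *Atp2a1* and *Casq2* stay between 1.11 and 2.43, *Pln* and *Trdn* stay between -0.903 and -0.56, and *Ryr3*, *Jph1*, *Jph2* and *Casq1* lie between -0.509 and 0.461.

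Of the release channels, *Ryr1*, the channel of the skeletal muscle triad, sat deepest in the A compartment. The *Ryr1* bin (chr7:29000001-29500000) had PC1 values of 1.64 (myoblasts), 3.26 (myotubes) and 2.68 (AraC-treated myotubes), and scaled PC1 of 2.04, 2.18 and 2.26. The SD of PC1 over chr 7 was 0.804, 1.50 and 1.19 in the same conditions, so that raw PC1 grew with the spread of the chromosome while the scaled value differed by 0.133. *Ryr3*, a second release channel that is expressed in developing muscle and in brain, had PC1 of -0.0738, 0.467 and 0.779 in the same order (chr2:113000001-113500000). Its scaled PC1 of -0.0643, 0.234 and 0.461 crossed from B to A, and the difference of 0.526 between AraC-treated myotubes and myoblasts passed the size rule. *Ryr3* is a gene of 586 kb that spans 2 bins, and the bin that holds its middle and 3′ part had scaled PC1 of -0.338, -0.0342 and 0.286, so that this bin rose by 0.623 and crossed to A in AraC-treated myotubes.

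The voltage sensor *Cacna1s*, the pore-forming subunit of the T-tubule calcium channel, lay at a border of the A compartment. Its bin (chr1:136000001-136500000) had PC1 of 1.10, 2.95 and 2.39 in myoblasts, myotubes and AraC-treated myotubes, and scaled PC1 of 1.24, 1.76 and 1.70. The scaled value rose by 0.516 in myotubes, the single rise among the loci in that comparison, and was 0.464 above myoblasts in AraC-treated myotubes.

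The calcium pump and its inhibitor lay in opposite compartments. *Atp2a1* encodes SERCA1, the pump of the sarcoplasmic reticulum in fast muscle fibres, and its bin (chr7:126000001-126500000) had PC1 of 0.893, 2.18 and 1.85 and scaled PC1 of 1.11, 1.46 and 1.56. *Pln* encodes phospholamban, an inhibitor of the pump best known from heart and slow muscle, and its bin (chr10:53000001-53500000) had PC1 of -0.688, -1.29 and -1.06 and scaled PC1 of -0.903, -0.877 and -0.841. *Atp2a1* was thus higher by 0.348 and 0.447 than in myoblasts, while *Pln* differed by no more than 0.0619 in any comparison and was the most stable of the 10 loci over the 3 comparisons.

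Of the luminal buffers, *Casq2* and not *Casq1* lay in the A compartment. *Casq1*, the calsequestrin of fast skeletal fibres, had PC1 of -0.453, -0.399 and -0.521 and scaled PC1 of -0.509, -0.237 and -0.372 (chr1:172000001-172500000). *Casq2*, the calsequestrin of heart and slow fibres, had PC1 of 1.18, 2.49 and 2.66 and scaled PC1 of 1.93, 2.06 and 2.43 (chr3:102000001-102500000). *Casq2* stood next to *Ryr1* as the highest of the loci, and its difference of 0.497 between AraC-treated myotubes and myoblasts fell just short of a rise. The *Casq1* bin lay in B with many genes, as a minority of such bins did. Among 246 bins with 16 or more coding TSSs, 71.1%, 69.9% and 67.5% were in A, and 66 were in B in all 3 conditions.

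The junction scaffolds all lay at or below the border. *Trdn*, or triadin, anchors calsequestrin to the release channel, and its bin (chr10:33000001-33500000) had PC1 of -0.624, -1.22 and -0.707 and scaled PC1 of -0.819, -0.83 and -0.56. *Jph1*, a junctophilin that ties the reticulum to the T-tubule, had PC1 of 0.0311, 0.0303 and -0.189 and scaled PC1 of 0.0349, 0.018 and -0.135 (chr1:17000001-17500000). *Jph2*, the junctophilin shared by heart and skeletal muscle, had PC1 of -0.567, -0.0174 and -0.101 and scaled PC1 of -0.493, -0.00873 and -0.0599 (chr2:163000001-163500000). *Jph2* therefore came from clearly negative values in myoblasts to the border, with a difference of 0.485 in myotubes, just under the size rule. *Jph1* was the only locus that moved from A to B, over a span of 0.17, and its sign and that of *Jph2* in myotubes rest on values close to 0.

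Between myoblasts and myotubes, 1 of the 10 loci rose (*Cacna1s*), against 4.53% of the background bins, and none fell (3.69%). Between myoblasts and AraC-treated myotubes, 1 rose (*Ryr3*), against 7.99%, and none fell (6.93%). Between myotubes and AraC-treated myotubes none rose (2.49%) and none fell (0.475%). The nearest values on either side of the rule were those of *Cacna1s* (0.516) and *Jph2* (0.485) in the first comparison and of *Ryr3* (0.526) and *Casq2* (0.497) in the second. A single rise in 10 is near the background in each case. In sign, however, 8 of 10 loci had a higher scaled PC1 in myotubes than in myoblasts (background 48.5%), 9 of 10 in AraC-treated myotubes than in myoblasts (45.2%) and 6 of 10 in AraC-treated myotubes than in myotubes (45.3%). The median difference of the loci was 0.203, 0.347 and 0.059 in the same order, beside -0.00863, -0.0343 and -0.0179 over the background bins. *Jph1* was lower in all 3 comparisons, and *Trdn* was lower by 0.0109 in myotubes only. The first 2 comparisons share the myoblast matrix and so are not independent of each other, and the loci were chosen with earlier results of these data known. The histograms of the changes show the loci shifted to the right of the background peak but inside its width.

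**Figure D2:**
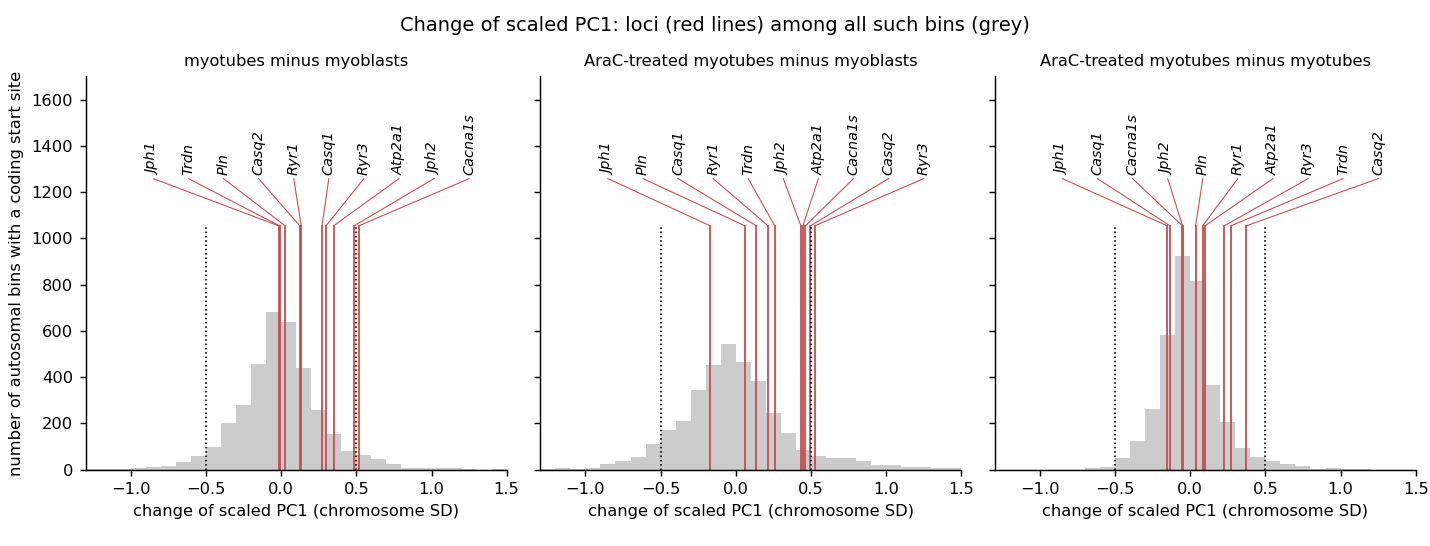
Number of autosomal bins with a coding TSS (vertical axis) by change of scaled PC1 in chromosome SD (horizontal axis, shown from -1.3 to 1.5) for the 3 comparisons, with the change of each locus as a red line and the size rule of 0.5 as dotted lines. Most red lines lie to the right of 0 in both comparisons with myoblasts, and 1 line passes the rule in each of them.

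These differences can be set beside spreads that 1 matrix per condition gives, none of which is a measure of noise between replicates. Over autosomal bins, the SD of the change was 0.261 for myotubes against myoblasts, 0.355 for AraC-treated myotubes against myoblasts and 0.19 for AraC-treated myotubes against myotubes. When PC1 was taken from odd or from even partner bins alone, the change of a locus differed between both by at most 0.152, 0.0824 and 0.0704. Against myoblasts, the changes of *Ryr1*, *Casq2*, *Pln*, *Trdn* and *Jph1* in myotubes, and of *Pln* in AraC-treated myotubes, were smaller than these bounds, while those of *Cacna1s*, *Jph2*, *Atp2a1*, *Ryr3* and *Casq1* were larger in both. The odd and even bins come from the same libraries and do not stand in for replicates. A change above these bounds is therefore not shown to exceed noise, and the SD over autosomal bins holds real change as well.

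By switches of compartment, 1 of 10 loci changed sign between myoblasts and myotubes (*Ryr3*, B to A), next to 8.41% of the background bins. Between myoblasts and AraC-treated myotubes 2 changed (*Ryr3*, B to A, and *Jph1*, A to B), next to 11.3%, and between myotubes and AraC-treated myotubes 1 changed (*Jph1*), next to 5.5%. These counts were near the background and rest on small PC1 values.

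The position of the loci was also read from partner bins on other autosomes only. The measure, called the contrast, is the mean correlation coefficient with A bins there minus that with B bins. It is given in units of its SD among autosomal bins. Each coefficient compares the profiles of 2 bins, so contacts on the chromosome of the locus can still enter it. The contrast is therefore not independent of PC1. For *Ryr1* it was 2.03, 1.94 and 1.89, and 1.54, 1.56 and 1.94 for *Casq2*. It was 0.989, 1.43 and 1.39 for *Cacna1s* and 0.881, 1.18 and 1.16 for *Atp2a1*. The contrast was thus higher than in myoblasts for *Cacna1s* and *Atp2a1* in both kinds of myotube, for *Casq2* mainly in AraC-treated myotubes, and lower for *Ryr1* in both. For *Ryr3* the contrast went from -0.0523 and 0.0926 to 0.408, and for *Jph2* from -0.369 to 0.0256 and -0.0769. *Jph1* had a negative contrast in every condition (-0.132, -0.248 and -0.35), also where its PC1 was above 0. *Casq1* (-0.53, -0.423 and -0.464), *Pln* (-0.763, -0.96 and -0.894) and *Trdn* (-0.7, -0.96 and -0.723) were negative throughout.

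The interaction profile of each bin was compared between conditions as Pearson *r* over the other bins of its chromosome. For the 4 loci that stayed in A, *r* between myoblasts and myotubes was 0.938 (*Ryr1*), 0.923 (*Cacna1s*), 0.916 (*Casq2*) and 0.9 (*Atp2a1*). *Pln* (0.915) and *Trdn* (0.908) kept their profiles as closely, and *Jph2* (0.829) and *Casq1* (0.8) less so. *Jph1* had 0.505 and *Ryr3* 0.187. Between myoblasts and AraC-treated myotubes, *Ryr3* had *r* of -0.107, so that its profile in the one was not that in the other, while the remaining 9 loci ranged from 0.403 (*Jph1*) to 0.916 (*Ryr1*). An *r* below 0 was found for 0 of 10 loci in myotubes against myoblasts (background 3.77%), 1 of 10 in AraC-treated myotubes against myoblasts (6.26%) and 0 of 10 in AraC-treated myotubes against myotubes (1.03%). *Jph1* (0.0311) and *Ryr3* (-0.0738) had the PC1 values closest to 0 in myoblasts, and they were also the loci with the lowest *r* between myoblasts and either kind of myotube.

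Several loci lay beside larger changes than their own, as the profiles over 2.5 Mb on both sides show. On chr 3, the bins 1.5 to 2.5 Mb before *Casq2* went from the border of the compartments in myoblasts to well inside A in AraC-treated myotubes. The bin 2 Mb before it (chr3:100000001-100500000, with *Gdap2*, *Tent5c* and *Wdr3*) had scaled PC1 of -0.377, 0.379 and 1.55. Its rise of 1.93 from myoblasts to AraC-treated myotubes was the largest of all 4727 autosomal bins, and its rise of 1.17 from myotubes to AraC-treated myotubes ranked 2. The bins 2.5 Mb (*Spag17*) and 1.5 Mb (*Man1a2*, *Trim45*, *Ttf2*, *Vtcn1*) before *Casq2* rose by 1.72 and 1.52 from myoblasts to AraC-treated myotubes. Closer to *Casq2*, the bins 1 Mb and 0.5 Mb before it, which were in A in myoblasts already (1.36 and 1.28), rose by 0.838 and by 0.908. The change was thus larger from 1.5 to 2.5 Mb away than at 0.5 and 1 Mb, and smaller than these at *Casq2* (0.497) and in the next bin on the other side (0.458). These neighbours, and those of *Cacna1s* below, were chosen after their values were seen. PC1 accounted for 26.3% of the variance of chr 3 in myoblasts, the lowest share of all chromosomes in that condition, and its part in these values was not tested. The trans contrast of the bin 2 Mb before *Casq2* was -0.49, 0.14 and 1.16. Across the 6 ways of computing PC1 the rise of that bin ranged from 1.77 to 2.16.

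On chr 1, *Cacna1s* was the last A bin before a B region in myoblasts, and that region changed further than the locus. The bin 0.5 Mb after it (chr1:136500001-137000000, with *Nr5a2* and *Zfp281*) had scaled PC1 of -0.632, 0.104 and 0.572, a rise of 0.736 in myotubes and of 1.20 in AraC-treated myotubes. The bin 1 Mb after it, which holds no coding TSS, had -0.905, -0.335 and 0.231, a rise of 1.14 in AraC-treated myotubes. On the other side, the bin 0.5 Mb before *Cacna1s*, which holds the troponin genes *Tnnt2* and *Tnni1*, was deep in A with 2.24, 2.47 and 2.23.

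*Atp2a1* and *Jph2* also lay on the slope between compartments. The bin 0.5 Mb before *Atp2a1* had scaled PC1 of -0.297, 0.341 and 0.563, a switch from B to A with rises of 0.637 and 0.86, while the bin 0.5 Mb after it stayed at 2.26, 2.32 and 2.18. For *Jph2*, the bin 0.5 Mb after it had 0.558, 1.14 and 1.26, and the bin 0.5 Mb before it -1.44, -1.23 and -1.10. In both regions the border between the compartments lay in or next to the bin of the gene, and the scaled PC1 of the bins at the border was higher in myotubes of both kinds.

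The neighbourhoods of the remaining loci differed from these. *Ryr1* lay within an A domain of 6 bins with scaled PC1 above 1, and *Pln* and *Trdn* within stretches of 11 bins that were negative in each condition. Around *Jph1* and *Casq1* the larger changes were downward. The bin 2.5 Mb before *Jph1* fell, with changes of -0.571 in myotubes and -0.78 in AraC-treated myotubes, as did the bin 2.5 Mb before *Casq1*, with -0.591 and -0.711.

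**Figure D3:**
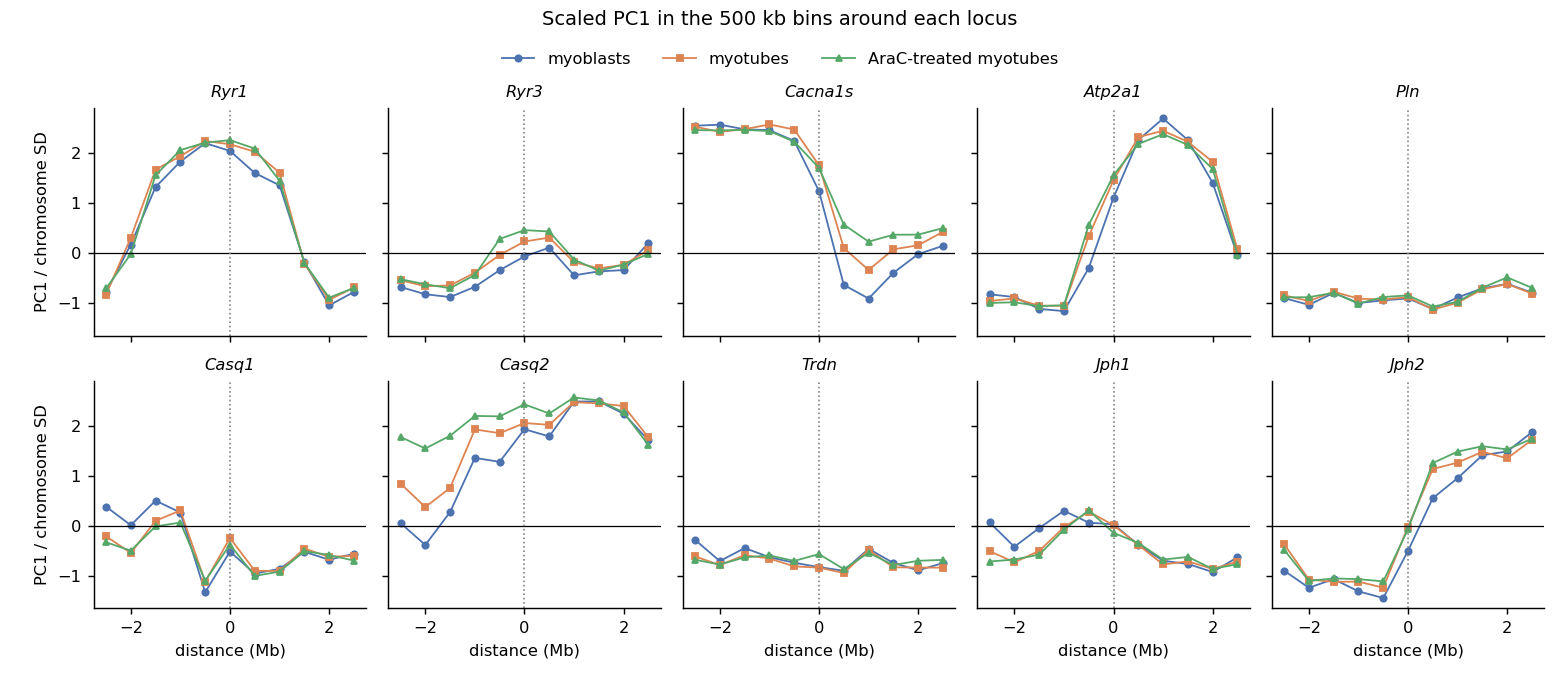
Scaled PC1 (vertical axis, chromosome SD) of the bin of each gene (dotted line at 0) and its 5 neighbours on each side against distance in Mb along the chromosome (horizontal axis), for myoblasts, myotubes and AraC-treated myotubes. The AraC-treated line lies far above the myoblast line to the left of *Casq2* (by 1.93 at 2 Mb) and to the right of *Cacna1s* (by 1.20 at 0.5 Mb), and the 3 lines overlie each other around *Pln*.

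To ask whether the loci shared interaction profiles across chromosomes, the correlation coefficients of the 39 pairs of loci on different chromosomes were read directly. Over all 39 pairs, the mean was 0.00652 (myoblasts), -0.000129 (myotubes) and 0.0021 (AraC-treated), beside means of 0.00526, 0.00743 and 0.00306 over all pairs of autosomal bins on different chromosomes. In units of the SD of those pairs (0.0446, 0.0889 and 0.0731), the loci stood at 0.0282, -0.085 and -0.0131. As a set, the loci were thus close to the mean of autosomal pairs in each condition.

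Within the set the pairs followed the compartments. The 5 pairs among *Ryr1*, *Atp2a1*, *Cacna1s* and *Casq2* had mean coefficients of 0.0831, 0.193 and 0.17, and in SD units 1.75, 2.09 and 2.29. All pairs of A bins had 0.981, 0.915 and 1.08 in the same units. The 4 loci have higher PC1 than many A bins, and these means over A bins take no account of it. The highest pair in every condition was *Ryr1* with *Casq2*, the release channel and a luminal buffer, with 0.125, 0.256 and 0.247. *Ryr1* with *Cacna1s*, whose proteins meet at the triad, had 0.0668, 0.239 and 0.18, the next highest in both kinds of myotube, while *Cacna1s* with *Casq2* (0.102, 0.153 and 0.166) was next in myoblasts. The 15 pairs of a locus in A with a locus in B had means of -0.0255, -0.0721 and -0.0638, and the lowest in myotubes was *Ryr1* with *Pln* at -0.145. All pairs of an A bin with a B bin had means close to these, of -0.0212, -0.0598 and -0.0534. The 5 pairs among the B loci stayed near 0 (0.0236, 0.0221 and 0.0259), with *Casq1* and *Jph2* the highest of them at 0.0923, 0.0599 and 0.0607. All pairs of B bins had means of 0.0212, 0.0579 and 0.0413, so that the B loci were below them in both kinds of myotube. The means over B bins take no account of PC1 either. *Jph2*, which is part of several of these pairs, lay near the border there, with scaled PC1 of -0.00873 and -0.0599.

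**Figure D4:**
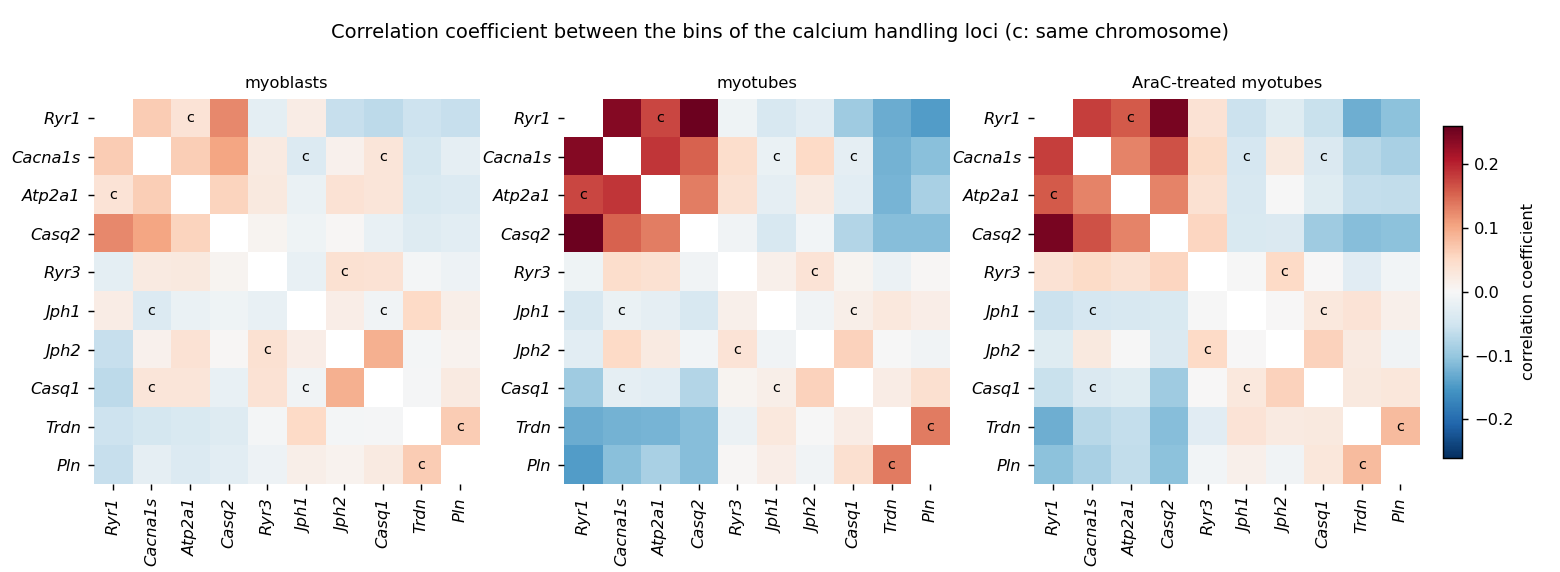
Correlation coefficient (colour, from -0.26 to 0.26) between the bins of each pair of loci in myoblasts, myotubes and AraC-treated myotubes, with pairs on the same chromosome marked c. The block of *Ryr1*, *Cacna1s*, *Atp2a1* and *Casq2* is positive in each condition, up to 0.256, and its pairs with *Trdn* and *Pln* are negative, down to -0.145.

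Among pairs on the same chromosome, *Ryr1* and *Atp2a1*, 97 Mb apart on chr 7, had 0.0359, 0.174 and 0.159. *Pln* and *Trdn*, 20 Mb apart on chr 10, had 0.065, 0.136 and 0.0833. *Cacna1s* with *Casq1* on chr 1 went from 0.0319 in myoblasts to -0.0232 and -0.038, so that the voltage sensor and the buffer of fast fibres had coefficients of opposite sign before and after differentiation, all of them small.

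The bins on other chromosomes with the highest coefficient to each locus were of the same compartment as the locus, except for *Jph1* in myoblasts and myotubes. For *Ryr1* they were chr2:30500001-31000000 in myoblasts (0.31, with *Prrx2*, *Ptges* and *Usp20* among 10 coding genes), chr17:25500001-26000000 in myotubes (0.495, 29 coding genes) and chr15:76500001-77000000 in AraC-treated myotubes (0.401, 28 coding genes). *Atp2a1* had the same partner in both kinds of myotube, chr10:80000001-80500000 with 27 coding genes (0.272 and 0.233). *Cacna1s* in myotubes was nearest to chr15:102500001-103000000, the bin of the *Hoxc* cluster (0.312). *Casq2* in AraC-treated myotubes was nearest to chr16:92500001-93000000, where the only coding TSS is that of the transcription factor *Runx1* (0.374). *Ryr3* was nearest to a B bin with *Hmox1* and *Mcm5* in myoblasts (0.0649), to the bin of *Myoz2*, which encodes a Z-disc protein of striated muscle, in myotubes (0.0641), and to an A bin with *Son* and *Itsn1* in AraC-treated myotubes (0.102). For the B loci the top partners were gene-poor in part, such as bins with no coding TSS for *Pln* in myoblasts (0.104) and myotubes (0.176) and for *Trdn* in myotubes (0.162). A top partner was picked as the highest of all autosomal bins on other chromosomes, so that its coefficient is a description.

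Other genes of calcium handling were read in the same way. Of the background bins, 4.53% rose and 3.69% fell in myotubes against myoblasts. In AraC-treated myotubes against myoblasts, 7.99% rose and 6.93% fell. With lists this small, a count of 1 or 2 says little beside these shares. Of 11 other genes of the triad and its channels, 2 rose and 0 fell in myotubes, and 1 rose and 0 fell in AraC-treated myotubes against myoblasts, with medians of 0.239 and -0.0503. The highest was *Cacng1*, the gamma subunit of the T-tubule channel, with scaled PC1 of -0.124, 0.519 and 0.798 and a rise of 0.922 in AraC-treated myotubes. The lowest was *Sypl2*, which encodes mitsugumin-29, with 2.26, 1.90 and 1.84.

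Of 10 other genes of the sarcoplasmic reticulum, 1 rose and 0 fell in either comparison with myoblasts (medians -0.0629 and -0.0486). It was *Tmem38a*, which encodes the counter-ion channel TRIC-A of the reticulum, with -0.414, 0.115 and 0.432, a switch from B to A. *Hrc*, a luminal histidine-rich calcium-binding protein, was lowest in change with 2.49, 2.39 and 2.06.

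Of 10 genes of store-operated entry and extrusion, 1 rose in myotubes, and 2 rose and 1 fell in AraC-treated myotubes against myoblasts (medians -0.055 and -0.0699). *Slc8a3*, a sodium-calcium exchanger of skeletal muscle and brain, rose by 0.763 and by 1.30, from 0.441 in myoblasts to 1.20 and 1.74. Its change was the largest of all calcium genes examined, larger than that of any of the 10 loci. *Trpc1*, a cation channel, fell by 0.572, from 0.509 in myoblasts to -0.0632 in AraC-treated myotubes.

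Of 10 isoforms known mainly from heart, brain or other tissues, 1 rose in myotubes and 2 rose in AraC-treated myotubes against myoblasts, and 0 fell (medians 0.0997 and 0.17). The highest was *Jph4*, a junctophilin of brain, with 0.927, 1.17 and 1.66, and the lowest *Jph3*, another junctophilin of brain, with 2.87, 2.51 and 2.55. Both brain junctophilins were thus in A in all conditions, which neither *Jph1* nor *Jph2* was.

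The 8 troponin genes, which encode subunits of the calcium-sensing complex of the thin filament, lie in 5 bins, which were in A in all conditions. Of these 5 bins, 0 rose or fell in myotubes, and 1 rose in AraC-treated myotubes, that of *Tnni2* and *Tnnt3*, the troponins of fast fibres, with 1.24, 1.66 and 1.95. The lowest was the bin of *Tnnt1* and *Tnni3* with 0.579, 0.186 and 0.179. Of the lists examined, the median change was highest for the 10 loci in AraC-treated myotubes against myoblasts (0.347), and for the other triad and channel genes in myotubes against myoblasts (0.239, with 0.203 for the 10 loci). The lists hold 5 to 11 bins each and overlap in range, as the plot by list shows, and the lists were chosen with earlier results of these data known.

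**Figure D5:**
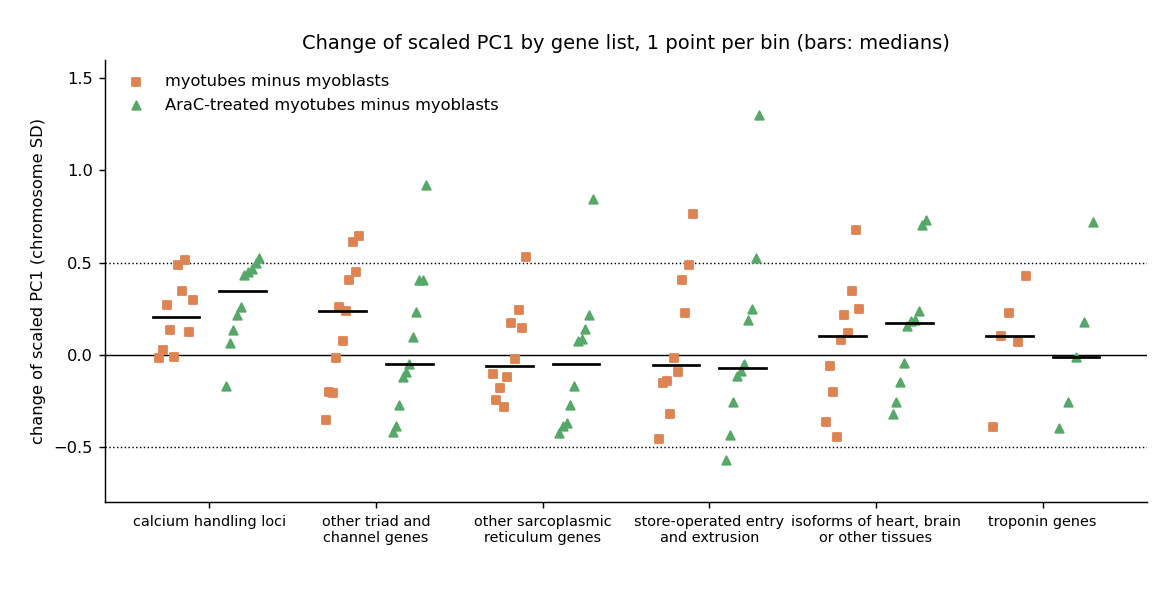
Change of scaled PC1 against myoblasts (vertical axis, chromosome SD) of each bin in the set of 10 loci and in 5 other gene lists (horizontal axis), for myotubes (squares) and AraC-treated myotubes (triangles), with the median of each as a bar and the size rule of 0.5 as dotted lines. The 10 loci have medians of 0.203 and 0.347, no locus is below -0.17, and the single highest point is *Slc8a3* at 1.30.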

How the data were processed

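Hi-C was performed in C2C12 myoblasts, myotubes and AraC-treated myotubes, with 2 biological replicates each, grown from separate vials and on separate days. Per the methods of the study, libraries were cut with HindIII, reads were mapped with bowtie, di-tags were filtered in HiCUP and replicates were pooled and normalized in HOMER. The reference name given there is that of the human build, while the submitters' processing notes also name mm10. For 20 of 20 mouse chromosomes compared, the last bin of the matrices started inside the chromosome. The values deposited by the authors are a score, namely how well the normalized profiles of 2 bins of 500 kb correlate (Pearson), with 1 matrix per condition. The number of di-tags behind a coefficient is not in the matrix, so depth per bin is unknown here.

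PC1 was computed per chromosome and condition from the coefficients inside that chromosome after subtracting each column's mean, and signed by the number of protein-coding TSSs per bin (GENCODE vM21, GRCm38). It was divided by its SD over the bins of the chromosome. A rise or fall was a change of 0.5, and a switch a change of sign. Pairs in trans were expressed as the difference from the mean over pairs of autosomal bins on different chromosomes, divided by their SD. Promoters came from RefSeq (GRCm38.p6). Motifs were searched on both strands. Python 3.11.15, NumPy 2.4.6 and Matplotlib 3.10.9 were used. Only the steps for PC1 and its scaled change were tested on simulated data.

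The 10 loci and all lists were chosen with earlier results of these data known. Named genes were all 10 loci, genes that share their bins (some of which are not reported here), the highest and lowest of each list by change from myoblasts to AraC-treated myotubes, and the top partner bins. *Tnnt2*, *Tnni1* and the neighbour bins were added after their values were known. Alternatives comprised other ways to compute, scale and place PC1, other size rules and other references for pairs. Odd or even partner bins and the reference of bin pairs with similar PC1 were added after the data were seen.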

Additional observations from a re-analysis of the deposited data

How the results depend on the processing

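No paired analysis was possible because the replicates of each condition were pooled into 1 matrix before deposit, and no replicate was left out for the same reason. The number of loci with a rise depended on the setting. For myotubes against myoblasts (1 as reported) it was 0 with columns not centred, with the mean of 3 bins and with a size rule of 1 SD, 2 with the component from other autosomes, with even partner bins and with the SD over autosomal bins, and 5 with a rule of 0.25 SD. For AraC-treated myotubes against myoblasts (1) it was 0 with columns not centred and at 1 SD, 2 with odd partner bins and the mean of 3 bins, 3 with other autosomes and with the SD over autosomal bins, and 6 at 0.25 SD. For AraC-treated myotubes against myotubes (0) it was 2 at 0.25 SD. The background shares given earlier apply only to the main setting and its size rule. No such share is given for the other settings, so their counts of rises, and of switches below, cannot be compared with the background. Switches numbered 2 (pairs within 2 Mb left out, other autosomes) or 0 (middle of the gene, bins under the 20th percentile of absolute PC1 left out) for the first comparison (1 as reported), 1 (columns not centred, other autosomes) or 0 (20th percentile) for the second (2), and 0 (columns not centred, 20th percentile) or 2 (pairs within 2 Mb left out, middle of the gene) for the third (1). No locus had *r* below 0 in the second comparison over bins of other autosomes, so that the value of *Ryr3* there holds only within chr 2.

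The median change from myotubes to AraC-treated myotubes (0.059) reversed to -0.0231 with the SD over autosomal bins and to -0.103 with PC1 not scaled. Mean trans coefficients in SD units were -0.654, -0.771 and -0.841 for myoblasts, myotubes and AraC-treated myotubes against pairs of A bins. Same-chromosome pairs separated by more than 10 Mb had means of 0.516 in myotubes and 0.505 in AraC-treated myotubes. In myoblasts these pairs ran from -0.919 (*Cacna1s* with *Jph1*) to 1.34 (*Pln* with *Trdn*). They were scaled by the mean and SD of pairs on different chromosomes, so no same-chromosome background stands beside them. Without single loci, the mean over trans pairs ranged from -0.0816 to 0.164, -0.241 to 0.0782 and -0.175 to 0.143. Over 8 alternatives each, the change against myoblasts kept its sign for *Ryr3*, *Atp2a1*, *Cacna1s*, *Casq1* and *Jph2* in both comparisons. It did not for *Ryr1*, *Casq2*, *Trdn* and *Jph1* in myotubes (down to -0.00212, -0.0322 and up to 0.0095 and 0.0669), for *Jph1* in AraC-treated myotubes (up to 0.0382) and for *Pln* in both (down to -0.172 and -0.143). The cause of these differences was not tested.

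The limit of the data is 1 pooled matrix per condition. A bin of 500 kb holds several genes, a correlation coefficient does not show the reads behind it, and day and AraC changed together.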
